A study of Mus musculus with 4 samples.

Results

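The genes described here are 10 genes of epithelial identity, *Epcam*, *Cdh1*, *Krt8*, *Krt18*, *Krt19*, *Krt7*, *Grhl2*, *Ovol2*, *Esrp1* and *Esrp2*. They were taken by symbol from the 12814 genes of the expression table, and each symbol matched 1 gene. RNA-seq was performed on hair cells (HCs), the mechanosensory cells of the inner ear, and on the other cells of the same epithelia, labelled epithelial non-sensory cells (ENSCs). Both populations were sorted from the cochlea and from the vestibular system of newborn mice carrying the *Atoh1/nGFP* transgene, which marks HCs with a green fluorescent protein (strain C57BL/6 by the labels). All 4 populations came from transgenic mice, with several animals pooled per preparation, and there was no wild-type group. HCs were positive for the fluorescent protein and for CD326, the product of *Epcam*, and ENSCs were positive for CD326 alone, so that presence of *Epcam* was a condition of both sorts. Each population is 1 column in the table, and triplicates named in the design text were not analysed here. No value below therefore has a replicate error, no difference could be tested, and no p-value is given.

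Epithelial cells are held together by the adherens junction protein E-cadherin (*Cdh1*) and carry the adhesion molecule EpCAM at their surface. Inside the cell, type II keratins (*Krt8*, *Krt7*) pair with type I keratins (*Krt18*, *Krt19*) to form the intermediate filaments of simple epithelia. The transcription factors *Grhl2* and *Ovol2* maintain the epithelial state and counter factors of the epithelial-to-mesenchymal transition such as ZEB1. *Esrp1* and *Esrp2* encode splicing regulators that impose epithelial isoforms on their target transcripts. In the inner ear, HCs and their neighbours form 1 epithelium with tight and adherens junctions between all cells, and *Grhl2* and *Esrp1* are both known as deafness genes.

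Values are quantile-normalized read counts, called signal below, with a floor of 20. The normalization gave every library the same set of signals, with a median of 120, so an overall shift between populations could not be seen and sequencing depth is unknown. The lowest signals were ties whose order carried no information on the gene, up to 24.25 in cochlear HCs, 22.75 in cochlear ENSCs, 30.5 in vestibular HCs and 20 in vestibular ENSCs. A fold against a signal in this tied low range is given as a lower bound, computed against its top. Of the 10 genes, 5 (*Epcam*, *Cdh1*, *Krt18*, *Grhl2* and *Esrp1*) were above the tied low range in all 4 libraries and 5 were inside it in at least 1. Each of the 10 listed HC markers exceeded its ENSC signal by 3-fold or more in both organs, and the markers' summed ENSC signal was 5.02% (cochlea) and 4.5% (vestibular system) of the HC sum. *Myo6* gave most of that ENSC signal, and without it the shares were 3.68% and 1.69%.

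Promoter sequence was at hand for 5 of the 10 genes (RefSeq, GRCm38.p6). It is shown for *Epcam* and for the keratin pair *Krt8* and *Krt18*, whose signals moved together between the libraries. Each run below covers the 250 bases before the annotated start, read on the gene's strand. Capitals mark the E-box CAGGTG or its reverse complement CACCTG, the letters bound by ZEB and SNAI repressors.

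Epcam (chr17:87635729-87635978, plus strand): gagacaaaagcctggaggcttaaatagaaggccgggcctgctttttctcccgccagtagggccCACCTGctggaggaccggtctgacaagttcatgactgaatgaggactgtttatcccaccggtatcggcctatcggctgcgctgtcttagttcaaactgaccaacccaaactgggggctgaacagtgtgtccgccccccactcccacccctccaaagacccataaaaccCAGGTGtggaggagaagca

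Krt8 (chr15:102004343-102004592, minus strand): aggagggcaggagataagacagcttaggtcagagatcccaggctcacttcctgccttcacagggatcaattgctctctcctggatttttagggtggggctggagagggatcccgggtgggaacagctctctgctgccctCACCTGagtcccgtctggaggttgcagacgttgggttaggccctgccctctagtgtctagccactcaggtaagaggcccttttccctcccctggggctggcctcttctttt

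Krt18 (chr15:102027966-102028215, plus strand): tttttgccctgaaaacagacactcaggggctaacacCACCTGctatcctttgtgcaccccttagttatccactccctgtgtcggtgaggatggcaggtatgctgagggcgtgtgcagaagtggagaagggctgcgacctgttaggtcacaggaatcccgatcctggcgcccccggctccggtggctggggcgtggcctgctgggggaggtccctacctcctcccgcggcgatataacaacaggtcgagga

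*Epcam* held this E-box at -187 and -19, *Krt8* at -111 and *Krt18* at -214, each counted from the annotated start to the first base of the match. *Krt7* held it at -44, and *Ovol2* did not hold it. Of all 32851 promoters of this length, 17.2% held it. The letters AACCNGTT or AACNGGTT, bound by Grainyhead-like factors, were in none of the 5 promoters and in 1.79% of all promoters. *Cdh1*, *Krt19*, *Grhl2*, *Esrp1* and *Esrp2* had no entry in the promoter table.

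The first comparison was HCs against ENSCs in each organ. In the cochlea, HC signal was at least 3-fold lower for 6 of the 10 genes (*Epcam*, *Krt8*, *Krt18*, *Krt19*, *Grhl2* and *Esrp1*) and 0 were at least 3-fold higher. Over all 12814 genes, 9.2% were at least 3-fold lower and 8.39% at least 3-fold higher. In the vestibular system, the same 6 genes and *Cdh1* were at least 3-fold lower in HCs, and again 0 of the 10 were higher. There 14.3% of all genes were at least 3-fold lower and 13.8% at least 3-fold higher. Over the 10 genes the median log2 ratio of HC to ENSC signal was -1.86 for the cochlea and -2.81 for the vestibular epithelia, against 0.00 and -0.01 over all genes. The 6 genes lower in both organs were 60.0% of the group, and 4.66% of all genes were lower in both.

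**Figure D1:**
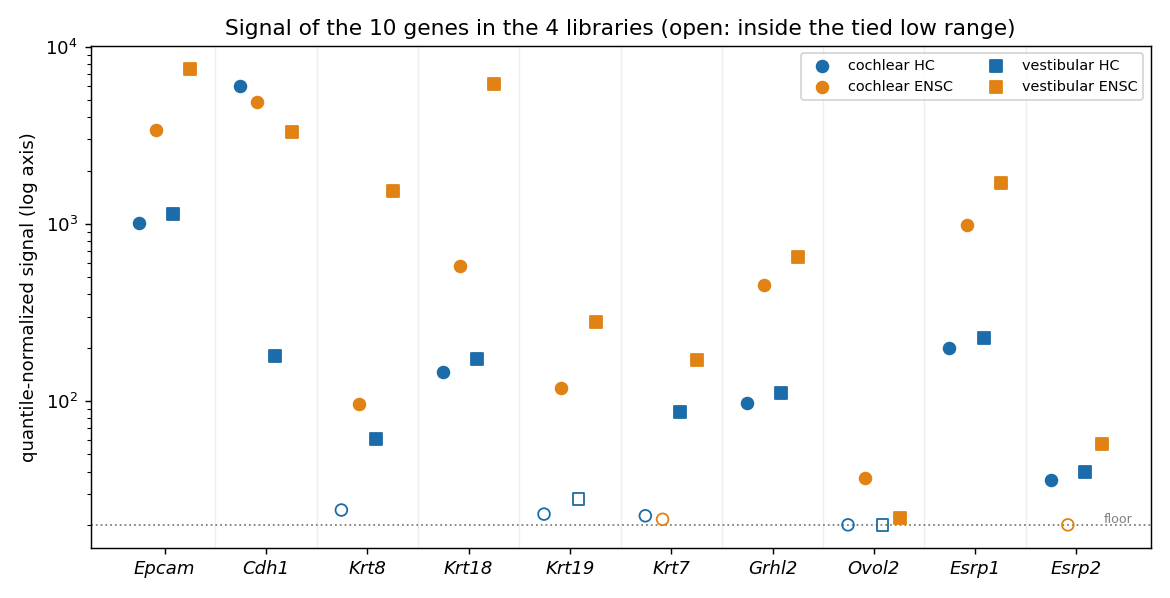
Quantile-normalized signal (log axis) of the 10 genes in cochlear HCs (blue circles), cochlear ENSCs (orange circles), vestibular HCs (blue squares) and vestibular ENSCs (orange squares), 1 library each. Open symbols lie inside the tied low range and the dotted line is the floor of 20. Vestibular ENSCs had the highest signal for 8 of the 10 genes, and *Cdh1* was the gene whose vestibular HC signal fell furthest below its cochlear HC signal.

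*Epcam* (ENSMUSG00000045394, mm9 chromosome 17, 88035319 to 88050446) encodes the surface protein on which both populations were sorted. Its signal was 1016.75 in cochlear HCs, 3376.25 in cochlear ENSCs, 1139.25 in vestibular HCs and 7511 in vestibular ENSCs. The HC libraries were close to each other and both lay below both ENSC libraries. HCs were 3.32-fold lower than ENSCs in the cochlea (log2 ratio -1.73) and 6.59-fold lower in the vestibular system (-2.72). After correction for exonic length and GC content, the cochlear log2 ratio was -1.57, just under 3-fold, and the vestibular one -2.12. In HCs *Epcam* still exceeded 88.1% (cochlea) and 89.4% (vestibular) of all genes, and in ENSCs 97.4% and 99.3%.

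*Cdh1* (ENSMUSG00000000303, mm9 chromosome 8, 109127251 to 109194146) encodes E-cadherin. It had a signal of 6003 in cochlear HCs, 4852.75 in cochlear ENSCs, 178.5 in vestibular HCs and 3308.25 in vestibular ENSCs. The 3 other libraries were within 2-fold of each other, and vestibular HCs stood far below them. HCs and ENSCs differed by 1.24-fold in the cochlea, with the higher signal in HCs (log2 ratio 0.31). In the vestibular system HCs were 18.5-fold lower than ENSCs (-4.21, and -3.86 after length and GC correction). Cochlear HCs were 33.6-fold above vestibular HCs (log2 ratio 5.07), which placed *Cdh1* at rank 7 of 12814 genes in that direction. The vestibular log2 ratio of HC to ENSC minus the cochlear one was -4.52, rank 34 of 12814 genes from the most negative.

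N-cadherin (*Cdh2*), another classical cadherin, was higher in HCs. Its signal was 1538 in cochlear HCs, 510 in cochlear ENSCs, 1313.5 in vestibular HCs and 586 in vestibular ENSCs. Its log2 ratio of HC to ENSC was 1.59 (cochlea) and 1.16 (vestibular system). Divided by merged exon length, *Cdh1* exceeded *Cdh2* 6.88-fold in cochlear HCs, 16.8-fold in cochlear ENSCs and 9.96-fold in vestibular ENSCs. Vestibular HCs were the only library of the 4 in which *Cdh2* was the higher one, with 163 signal per kb against 39.0 for *Cdh1*. P-cadherin (*Cdh3*) was lower in HCs of both organs, by 4.70-fold in the cochlea (375 in ENSCs, 79.75 in HCs) and 34.6-fold in the vestibular system (1869.25 and 54).

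**Figure D2:**
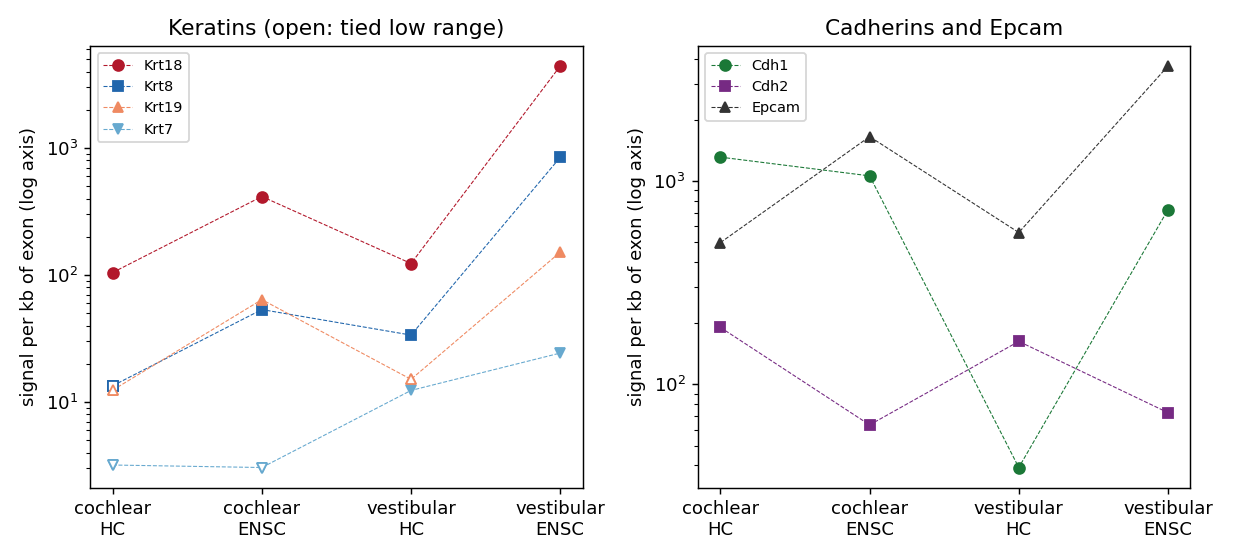
Signal per kb of merged exon (log axis) of the 4 keratins (left) and of *Cdh1*, *Cdh2* and *Epcam* (right) in the 4 libraries, 1 point per library. Open symbols lie inside the tied low range and dashed lines only join points of 1 gene. *Krt18* was highest among the keratins in every library, and *Cdh1* was below *Cdh2* in vestibular HCs alone.

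The simple-epithelium keratins had their highest signals in vestibular ENSCs. *Krt18* (ENSMUSG00000023043, mm9 chromosome 15, 101858647 to 101862457) had 146.5 in cochlear HCs, 581 in cochlear ENSCs, 172.5 in vestibular HCs and 6188.75 in vestibular ENSCs. HCs of the 2 organs differed by 1.18-fold, whereas vestibular ENSCs were 10.7-fold above cochlear ENSCs (log2 ratio of cochlear to vestibular -3.41, and -2.70 after length and GC correction). HCs were 3.97-fold lower than ENSCs in the cochlea (log2 ratio -1.99) and 35.9-fold lower in the vestibular system (-5.16, and -4.11 after length and GC correction).

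*Krt8* (ENSMUSG00000049382, mm9 chromosome 15, 101827142 to 101834773), the type II partner of *Krt18*, lies beside it in the genome on the opposite strand. Its signal was 24.25 in cochlear HCs, inside the tied low range, 96.5 in cochlear ENSCs, 60.75 in vestibular HCs and 1524 in vestibular ENSCs. The order of the libraries was that of *Krt18*. Cochlear HCs were at least 3.98-fold lower than ENSCs, vestibular HCs were 25.1-fold lower than ENSCs (log2 ratio -4.65), and vestibular ENSCs were 15.8-fold above cochlear ENSCs. With length and GC correction the vestibular log2 ratio was -3.59, and that of cochlear to vestibular ENSCs moved from -3.98 to -3.27. The level of *Krt8* is uncertain because of an intronless copy. A stretch of mm9 chromosome 7 (24142113 to 24143830) was 97.9% identical to the *Krt8* exons over an alignment of 1734 columns, gaps included, and 54.5% of their 50-nt windows, the aligned read length, occurred elsewhere in the genome without a mismatch. The other 9 genes had such a second exact place in the genome for at most 0.514% of their windows (*Krt7*), and 8 of them for 0.00%. Per kb of exon, *Krt18* was 5.24-fold above *Krt8* in vestibular ENSCs, 7.76-fold in cochlear ENSCs and 3.66-fold in vestibular HCs, and the part of the copy in the *Krt8* signal was not tested.

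*Krt19* (ENSMUSG00000020911, mm9 chromosome 11, 100002124 to 100009979), a type I keratin, had 118.75 in cochlear ENSCs and 280.75 in vestibular ENSCs. Both HC signals, 23 (cochlea) and 28 (vestibular system), were inside the tied low range. HCs were therefore at least 4.90-fold lower than ENSCs in the cochlea and at least 9.2-fold lower in the vestibular system before correction. The vestibular log2 ratio of the deposited signals was -3.33, and -2.30 after length and GC correction. *Krt7* (ENSMUSG00000023039, mm9 chromosome 15, 101241474 to 101260744), a type II keratin of ducts and glands, followed the organ more than the cell type. It was inside the tied low range in both cochlear libraries (22.5 in HCs, 21.5 in ENSCs), whereas its vestibular signals were 87 in HCs and 171.25 in ENSCs. The vestibular signals were at least 3.59-fold above the cochlear one in HCs and at least 7.53-fold in ENSCs, and HCs and ENSCs of the vestibular system differed by 1.97-fold.

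Only 4 other keratin genes were in the table, and of these *Krt222* and *Krt10* reached a signal of 100. Of the 4, 1 was higher and 0 lower in cochlear HCs, and 2 were higher and 2 lower in vestibular HCs by deposited ratios, the lower ones (*Krt23* and *Krt80*) against tied low HC signals. *Krt222*, a divergent type I keratin-like gene, was the reverse of the simple keratins, with 166 in cochlear HCs, 493.25 in vestibular HCs and tied low signals in both ENSC libraries. It was at least 7.3-fold higher in HCs in the cochlea and at least 24.7-fold in the vestibular system. *Krt10*, a keratin of differentiating epidermis, had 145.25 in cochlear HCs, 270.5 in cochlear ENSCs, 267.25 in vestibular HCs and 45.25 in vestibular ENSCs (log2 ratios -0.90 and 2.56). Vimentin (*Vim*), the intermediate filament protein of mesenchyme and of many supporting cells, was 11.9-fold lower in HCs in the cochlea (424.75 and 5062.5) and 12.8-fold lower in the vestibular system (235.25 and 3005.25).

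Among the epithelial transcription factors, *Grhl2* (ENSMUSG00000022286, mm9 chromosome 15, 37162791 to 37293324) separated cell types and hardly separated organs. It had 97 in cochlear HCs, 454.25 in cochlear ENSCs, 111 in vestibular HCs and 651.25 in vestibular ENSCs. HCs were 4.68-fold lower in the cochlea (log2 ratio -2.23) and 5.87-fold lower in the vestibular system (-2.55). The same cell type differed between organs by 1.14-fold in HCs and 1.43-fold in ENSCs. *Ovol2* (ENSMUSG00000037279, mm9 chromosome 2, 144130911 to 144157882) was scarcely detected, with 36.75 in cochlear ENSCs, 22 in vestibular ENSCs and the floor of 20 in both HC libraries. A transcript annotated on its opposite strand overlaps 17.0% of its exonic sequence, and the strand setting of the counting is not stated. No direction can be read for *Ovol2* in the vestibular system.

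The splicing regulator *Esrp1* (ENSMUSG00000040728, mm9 chromosome 4, 11259080 to 11313930) resembled *Grhl2*. Its signal was 200.5 in cochlear HCs, 982.75 in cochlear ENSCs, 225.75 in vestibular HCs and 1693 in vestibular ENSCs. HCs were 4.90-fold lower in the cochlea (log2 ratio -2.29) and 7.5-fold lower in the vestibular system (-2.91). The paralogue *Esrp2* (ENSMUSG00000084128, mm9 chromosome 8, 108654219 to 108660874) stayed low everywhere, with 35.75 in cochlear HCs, the floor of 20 in cochlear ENSCs, 39.75 in vestibular HCs and 57.25 in vestibular ENSCs. None of its ratios within an organ reached 3-fold. Per kb of exon, *Esrp1* exceeded *Esrp2* 20.4-fold in vestibular ENSCs, 3.86-fold in cochlear HCs and 3.91-fold in vestibular HCs.

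**Figure D3:**
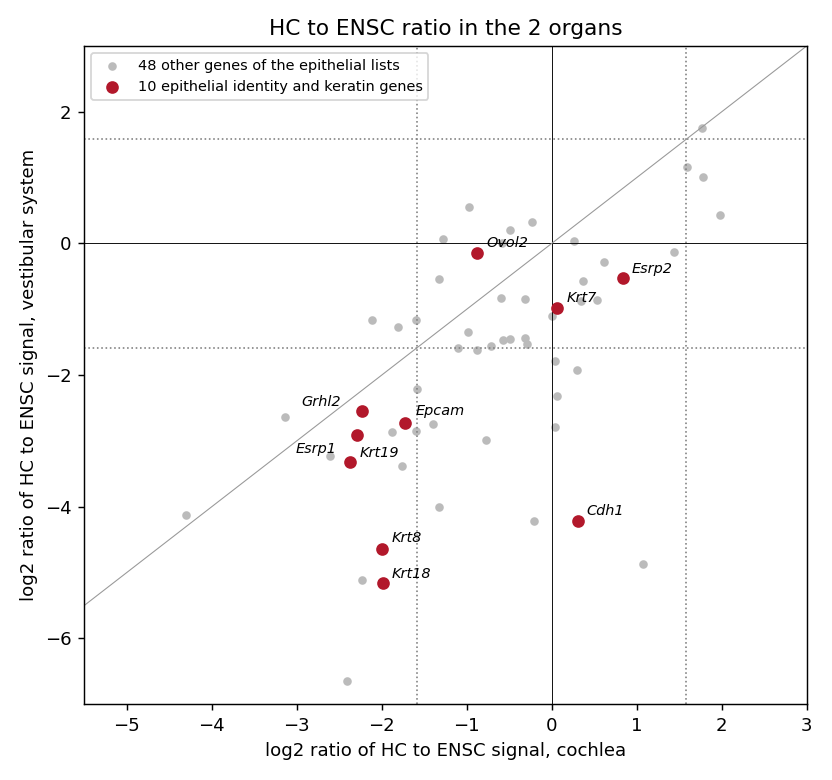
Log2 ratio of HC to ENSC signal in the cochlea (horizontal) and the vestibular system (vertical) for the 10 genes (red) and 48 further genes of 5 epithelial lists (grey), with 3-fold as dotted lines and equal ratios as the diagonal. *Epcam*, *Esrp1*, *Grhl2* and *Krt19* lie near each other below the diagonal, *Krt8* and *Krt18* lie further down, and *Cdh1* is 3-fold lower in the vestibular system alone.

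The second comparison was of the same cell type between organs, and it used the same 4 libraries as the first. Between cochlear and vestibular HCs, *Cdh1* was at least 3-fold higher and *Krt7* at least 3-fold lower in the cochlea, against 4.21% and 5.09% of all genes. The *Krt7* call rested on low signals. By the deposited signals the other 8 genes did not reach 3-fold. Of these, *Epcam*, *Krt18*, *Grhl2*, *Esrp1* and *Esrp2* were within 1.18-fold. The cochlear signal of *Krt8* was inside the tied low range, so its 2.5-fold is a lower bound and a difference past 3-fold is not excluded. *Krt19* and *Ovol2* were inside the tied low range in both HC libraries, and no ratio between the organs can be read for them. Between the ENSC libraries, *Krt8*, *Krt18* and *Krt7* were at least 3-fold lower in the cochlea and 0 of the 10 were higher, where 7.94% of all genes were lower and 7.8% higher. The median log2 ratio of cochlear to vestibular signal over the 10 genes was -0.18 in HCs and -1.20 in ENSCs, and the medians over all genes were 0.00.

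Genes that work with the 10 were then examined in 5 lists of regulators, EpCAM and matriptase partners, adherens junction partners, desmosome genes and other epithelium-restricted genes. Of 48 such genes in the table, 11 had a 3-fold lower and 4 a 3-fold higher signal in cochlear HCs, with a median log2 ratio of -0.58, beside 9.2% and 8.39% of all genes. In the vestibular system 19 were lower and 1 was higher, with a median of -1.45, beside 14.3% and 13.8% of all genes. In both organs 8 were lower, which was 16.7% of the 48 genes against 4.66% of all genes, and 1, the nectin gene *Pvrl1*, was higher (log2 ratios 1.76 and 1.75), beside 640 of all 12814 genes. These counts use the deposited signals, and with tied low signals set to the top of their range they were 10 lower in the cochlea and 17 lower in the vestibular system.

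Among 9 listed regulators in the table, 3 had 3-fold lower signals in cochlear HCs and 2 in vestibular HCs, 0 were higher, and the medians were -0.58 and -1.28. *Rbm47*, an RNA-binding protein gene, had 188.5 in cochlear HCs, 1663.25 in cochlear ENSCs, 157.25 in vestibular HCs and 980.5 in vestibular ENSCs, so that both HC libraries were below both ENSC libraries. Another cochlear call, *Ehf*, had at most 70 in any library and was at least 2.89-fold lower by its bound. *Klf4* depended on the organ, with 825.75 and 2474.25 in vestibular HCs and ENSCs against 139.75 and 299 in the cochlea. *Elf3* was above its tied low range in vestibular ENSCs alone (124.5).

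The EpCAM group held 7 genes, of which 2 were lower and 1 higher in HCs in the cochlea and 4 were lower in the vestibular system (medians -0.77 and -1.62). *Tmprss2*, 1 of these 4, was lower by 2.19-fold or more by its bound. *Cldn7*, which encodes a claudin that binds EpCAM, was 6.09-fold lower in cochlear HCs (34.75 and 211.5) and 9.39-fold lower in vestibular HCs (44.25 and 415.5). The protease matriptase (*St14*) was 3.38-fold and 10.5-fold lower, and prostasin (*Prss8*) 1.71-fold and 7.89-fold.

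The junction genes were mixed. Of 11 adherens junction partners, 2 were lower and 3 higher in HCs in the cochlea, and 4 were lower and 1 higher in the vestibular system (medians -0.32 and -0.85). α-Catenin (*Ctnna1*), which links cadherins to actin, was 3.02-fold and 7.21-fold lower in HCs, whereas afadin (*Mllt4*) was 3.94-fold higher in cochlear HCs (3619.25 and 919.5) and 1.35-fold higher in vestibular HCs. The nectin gene *Pvrl2* was 6.93-fold lower in vestibular HCs and differed by 1.02-fold in the cochlea. Of 9 desmosome genes, 3 were lower in HCs in the cochlea, 5 in the vestibular system and 0 higher (medians -1.33 and -1.78). The vestibular count includes *Pkp3*, whose bound was 2.54-fold. Desmoplakin (*Dsp*), which ties keratin filaments to the desmosome, had 34.75 in cochlear HCs, 684 in cochlear ENSCs, 181.25 in vestibular HCs and 3152 in vestibular ENSCs, so that HCs were 19.7-fold and 17.4-fold lower. *Dsg2*, a desmosomal cadherin gene, was 3.68-fold and 7.32-fold lower. The plakin and plakophilin genes *Ppl* and *Pkp1* were lower in vestibular HCs by at least 5.80-fold and 28.5-fold. In the cochlea *Pkp1* went the other way, with 47.5 in HCs and a tied low signal in ENSCs, at least 2.09-fold higher in HCs.

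Among 12 other epithelium-restricted genes, 1 was past 3-fold in cochlear HCs and 4 in vestibular HCs, all lower, where 9.2% and 14.3% of all genes were lower. The medians of -0.25 and -0.96 became 0.01 and -0.01 after length and GC correction. The claudin gene *Cldn4* was 5.32-fold lower in cochlear HCs (52.75 and 280.75) and, with 3065.75 in vestibular ENSCs, lower by 100.5-fold or more in vestibular HCs. *Cldn3*, with 539.25 in vestibular ENSCs, was lower by 17.7-fold or more in HCs of that organ. The polarity gene *Pard6b* was 2.51-fold lower in cochlear HCs (log2 ratio -1.33) and had 159.75 in vestibular HCs, against 2557.25 in ENSCs (-4.00), and *Prom2* at least 2.9-fold (cochlea) and 4.64-fold (vestibular).

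**Figure D4:**
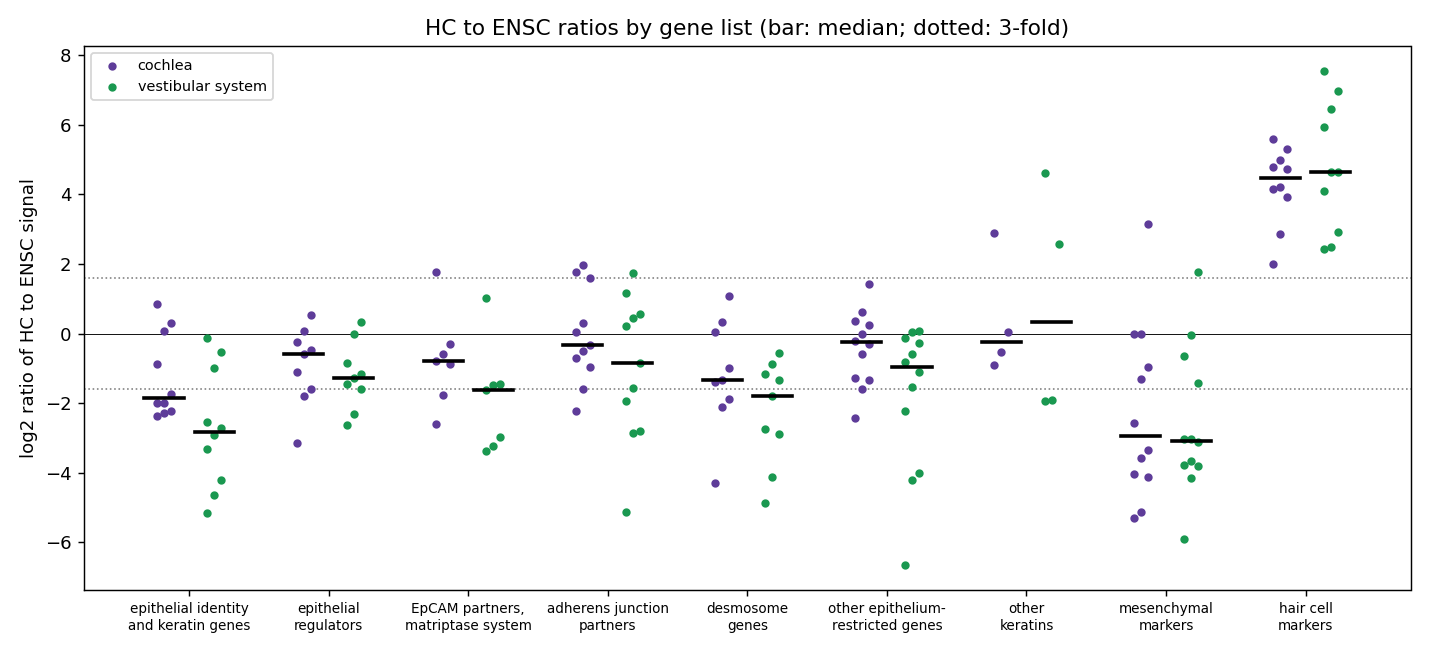
Log2 ratio of HC to ENSC signal by gene list in the cochlea (purple) and the vestibular system (green), 1 point per gene, with the list's median as a bar and 3-fold as dotted lines. The 10 epithelial identity and keratin genes had medians of -1.86 and -2.81, the mesenchymal markers -2.94 and -3.08, and the HC markers 4.47 and 4.65.

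Marker lists of other cell types went in different directions. Median log2 ratios of HC to ENSC were -2.17 (cochlea) and -1.79 (vestibular system) for glial genes. They were -1.08 and -0.225 for supporting and other non-sensory genes, and 2.13 and 4.93 for neuronal genes. Of 15 mesenchymal markers 12 were in the table, with 7 past 3-fold lower in cochlear HCs and 8 in vestibular HCs, and 1 (*Pdgfra*) higher in each. Their summed signal was 2507 in cochlear HCs, 26280 in cochlear ENSCs, 3779 in vestibular HCs and 11140 in vestibular ENSCs. *Lum* (12731.25) and *Vim* gave the largest parts of the cochlear ENSC sum, and *Cdh11* (3155.25), *Vim* and *Fn1* (2270) of the vestibular one. Inside the tied low range, floor included, were 5 of the 12 markers in cochlear HCs, 2 in cochlear ENSCs, 6 in vestibular HCs and 0 in vestibular ENSCs, and the transcription factor *Prrx1* was at the floor in all but vestibular ENSCs (31.25). Of the 7 transcription factors of the epithelial-to-mesenchymal transition, only *Zeb2* was among the genes analysed here, at the floor in 3 libraries and at 28.25 in vestibular ENSCs. Glial markers moved likewise, with 4 of the 5 in the table lower in cochlear HCs, 3 lower in vestibular HCs and *Sox10* at 1183 in vestibular ENSCs. Their summed signal ran from 282 in vestibular HCs to 1874 in vestibular ENSCs. Of the neuronal list 4 genes were in the table, 2 higher in HCs of the cochlea and 3 in those of the vestibular system, with sums of 399 to 8089. The 14 supporting and other non-sensory markers had 6 lower in cochlear HCs, and 5 lower and 1 higher in vestibular HCs, with sums of 15530 to 110800. The endothelial list was represented by *Kdr* alone, which had 1461.75 in vestibular ENSCs and at most 29.75 elsewhere. The macrophage list was represented by *Cd68*, at most 24.75, and the melanocyte and red blood cell lists had 0 genes in the table. Both sorts required CD326, a gate that leaves out cells without EpCAM, and the part of other cells in the ENSC signals was not tested. In RNA from sorted pools, fewer cells of a type and less RNA per cell cannot be told apart.

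Base composition moved with the vestibular ratios. Across 10358 genes that exceeded the floor in each vestibular library, the log2 ratio of HC to ENSC decreased with exonic GC content (Spearman's rho = -0.40), and in the cochlea rho was -0.04 across 10722 genes. The trend was also present between the organs for ENSCs (rho = -0.45, 10475 genes) and not for HCs (0.02). Genes are not independent replicates, and these values describe the libraries. The 10 genes had a median GC content of 54.8%, above the 48.8% of all genes. After correction for length and GC content the 7 vestibular calls remained, with the median of the 10 genes at -2.29 in place of -2.81. Between ENSCs of the organs the 3 calls remained as well, with log2 ratios of -3.27 for *Krt8*, -2.70 for *Krt18* and -2.57 for *Krt7* and a median of -0.83 in place of -1.20. Among the further named genes, the correction took *Prom2* (log2 ratio -1.48), *Elf3* (-1.29), *Tmprss2* (-1.17), *Pkp3* (-0.52), *Krt23* (-1.45) and *Krt80* (-1.29) under 3-fold in the vestibular system. In the cochlea it took *Cdh2* (1.49) and *Ctnna1* (-1.57) to just under 3-fold. It changed the vestibular fold by over 1.5 times, without ending the call, for *Prss8* (corrected log2 ratio -1.97), *Cldn7* (-2.12), *St14* (-2.41), *Pvrl1* (2.80), *Pvrl2* (-1.64), *Cdh3* (-4.53), *Ppl* (-1.98), *Pkp1* (-4.21), *Pard6b* (-3.31), *Cldn3* (-2.67), *Cldn4* (-5.59), *Krt10* (3.28), *Vim* (-2.93) and *Sox10* (-3.24).

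*Ovol2* and *Esrp2* stayed under a signal of 100 in every library and were left out of a search for similar genes. For the other 8, the most similar genes were found by the distance between log2 profiles over the 4 libraries, each centred on its own mean, among 9183 genes that reached a signal of 100 in some library. Near *Krt18* was *Otor* (distance 0.23), which encodes the inner ear protein otoraplin and had 79.75 in cochlear HCs, 307.25 in cochlear ENSCs, 100 in vestibular HCs and 2875.5 in vestibular ENSCs. *Krt8* was closest to *Gpx3* (0.43), *Grhl2* to *Zfp467* (0.09) and *Itgb1* (0.18), and *Krt19* to *Arhgap8* (0.11) and *Chdh* (0.14). *Epcam* was closest to *Phactr1* (0.09) and *Lmf2* (0.11), *Esrp1* to *Tnfrsf10b* (0.08) and *Ctsc* (0.11), and *Krt7* to *Spon1* (0.10) and *Nuak2* (0.11). Many of these have tied low signals in HCs, as *Phactr1* and *Lmf2* do. *Cdh1* had no such close neighbour: the nearest were *1600029D21Rik* at 1.44 and *Car13* at 1.60. Among these 8 genes themselves, *Grhl2* and *Esrp1* were nearest to each other (0.28), as were *Krt8* and *Krt18* (0.91).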

How the data were processed

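Deposited per gene is a normalized signal, which is not a raw count. To make it, the authors mapped 50 nt from the start of each read onto mm9 with TopHat. They used HTSeq to count reads by ENSEMBL gene. Their methods then give quantile normalization followed by a floor of 20, whereas the title of the deposited data names the floor first. The tied low range used here assumes that the floor came first. Versions, annotation release and strand setting are not given in the sources used here. The labels name polyadenylated RNA and NuGEN Ovation amplification. Columns were matched to samples by title, with columns named for non-HCs taken as ENSCs of the same organ.

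Log2 ratios were taken with no pseudocount, and genes differing 3-fold or more were counted. Genes were grouped by signal within a library and the median of their maxima in the other libraries was followed upwards: the tied low range ended where this median, after rising over 5-fold, dropped over 4-fold. These steps were tested on simulated data. Exonic length and GC content came from GENCODE for NCBIM37 (mm9), which held 12799 of 12814 identifiers. Trends on both were removed by local regression (statsmodels 0.14.6, fraction 0.3, 2 robust iterations). Merged exons were searched in the genome with BLAST 2.17.0 (identity of at least 96%, at least 50 nt). Genes outside the 10 were named by a rule: up to 4 per list with the largest HC to ENSC log2 ratio in either organ and a signal of at least 100, and the 2 nearest profiles per gene. Some genes that this rule names are not reported here. *Cdh2*, *Vim*, *Myo6*, *Pdgfra*, *Fn1*, *Lum*, *Prrx1*, *Cdh11*, *Sox10*, *Zeb2*, *Kdr*, *Cd68*, *Ehf*, *Tmprss2*, *Pkp3*, *Pvrl1*, *Krt23* and *Krt80* were named after their values were seen. The members and lists were chosen with earlier results of these data known. Alternatives were floors of 50 and 100, pseudocounts of 20 and 100, thresholds of 2 and 5, centring, a low-value filter, the length and GC correction and the top of the tied range.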

Additional observations from a re-analysis of the deposited data

Results flagged for a closer look

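For 3 of the 10 genes the HC to ENSC ratio had opposite signs in the 2 organs, and with 1 library per population this difference was not tested. The vestibular minus cochlear difference of log2 ratios was -4.52 for *Cdh1*, where the vestibular ratio was past 3-fold. It was -1.36 for *Esrp2* and -1.04 for *Krt7*, where no ratio within an organ reached 3-fold. Both cochlear *Krt7* signals and the cochlear ENSC signal of *Esrp2* were inside the tied low range, and the vestibular *Esrp2* ratio turned positive (0.43) after length and GC correction.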

How the results depend on the processing

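No paired analysis was possible because each population had 1 library, and for the same reason no library could be left out. Counts of the 10 genes past 3-fold moved by more than 1.5 times as follows. In the cochlea the count of 6 was 2 with a pseudocount of 100 (*Epcam* and *Esrp1*) and 1 at a 5-fold threshold (*Krt19*, whose bound was 4.90-fold). Between HCs of the 2 organs the count of 2 was 1, *Cdh1* alone, with floors of 50 and 100, pseudocounts of 20 and 100 and a 5-fold threshold. Between ENSCs the count of 3 was 6 at a 2-fold threshold. The vestibular count of 7 stayed between 6 and 7 in every alternative run. Shares of all genes under these alternatives are not reported here, so these counts have no background to be read against. Of 312 recomputed log2 ratios of single genes, 294 stayed on their side of 3-fold, 18 were no longer past it, and 0 ratios past 3-fold changed sign. Direction was kept by 288. Another 19 became 0 under the floors of 50 and 100, 2 *Ovol2* ratios of 0 became negative, and 3 small vestibular HC to ENSC ratios turned positive: *Ovol2* from -0.14 to 1.11 and *Esrp2* from -0.53 to 0.43 with length and GC correction, and *Ovol2* to 0.47 with tied signals at their top. Those lost with a floor or pseudocount were *Krt7*, *Krt8*, *Krt18*, *Krt19* and *Grhl2*, and the cochlear *Epcam* ratio was lost after length and GC correction (-1.57). Part of these totals was fixed in advance. The low-value filter changes no ratio (32 of the 312), and a higher floor or a pseudocount cannot reverse a sign. Depth per library is unknown, so counting error could not be given.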
